A study of Mus musculus with 300 samples.

Results

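Trbc1, Trbc2 and Trbj1-3 are transcripts of the T-cell receptor beta locus, and they are described here across single cells of the embryonic mouse thymus. The members were given by name, as 2 constant segments and 1 joining segment, and they are 3 of the 13737 features of the deposited expression matrix, which holds 17 further rows of the same locus. The cells carry 1 label, ETP, for early thymic progenitor, and come from thymi taken at E15.5 (days of embryonic development) from the labelled strain 5x polychromILC, a multi-colour reporter strain, so every cell carries the reporter alleles and there is no group without them. Each sample is 1 cell, with a library made by smartseq2, a full-length single-cell method. The labels list 300 cells of 4 mouse ids, and all but 39 are columns of the matrix. Mouse 1A gave 67 of these cells, mouse 1B gave 69, mouse 2A gave 64 and mouse 2B gave 61. There is no second group, so the questions are how often each transcript was found, how the transcripts of the locus varied together, and which progenitor and T-lineage genes varied with them within a mouse. No source states if a mouse id stands for 1 embryo or several. Each of the 4 mice shares a batch-correction set with at least 1 other mouse, so the mice are not clearly independent. The sharing is largest for 2A and 2B. Across the plates, 4 cells, labelled 1A or 2A, have mouse ids that break the run of wells. Without those 4 cells, the shares of associated genes given further on were 5.75% in place of 6.18% for Trbc1, 8.66% in place of 8.93% for Trbc2 and 1.39% in place of 1.43% for Trbj1-3.

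The beta chain of the alpha-beta T-cell receptor is put together in the thymus by V(D)J recombination, in which a variable, a diversity and a joining segment are cut and joined at the DNA. The locus has a pair of clusters in a row, each with a diversity segment, a run of joining segments and a constant segment, so that Trbj1 segments lie ahead of Trbc1 and Trbj2 segments ahead of Trbc2. The joined exon is spliced in the RNA to a constant segment, which encodes the constant domain, the membrane anchor and the short tail of the beta chain. The locus is also transcribed before it is rearranged, so a transcript of a joining or constant segment does not by itself show a finished receptor gene.

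All 3 members lie on the plus strand of mouse chromosome 6 in GRCm38 (GENCODE vM21). Trbj1-3 (ENSMUSG00000076485.2) is a single exon of 50 bases at chr6:41534323-41534372. Trbc1 (ENSMUSG00000076490.6) spans chr6:41538218-41539881 and Trbc2 (ENSMUSG00000076498.2) spans chr6:41546730-41548352, each with 4 exons and 518 coding bases. Joining segments differ from each other enough to be told apart, as shown here for Trbj1-3 and for the segments at the start of each cluster, Trbj1-1 (chr6:41533864-41533911), Trbj1-2 (chr6:41534001-41534048) and Trbj2-1 (chr6:41542754-41542803), which turned out to be the most often detected. Capitals mark the stretch TTNGGNNNNGGN, which encodes the phenylalanine-glycine motif shared by most joining segments.
Trbj1-1: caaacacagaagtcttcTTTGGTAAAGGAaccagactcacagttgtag
Trbj1-2: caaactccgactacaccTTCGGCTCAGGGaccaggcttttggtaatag
Trbj1-3: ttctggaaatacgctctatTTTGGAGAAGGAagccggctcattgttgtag
Trbj2-1: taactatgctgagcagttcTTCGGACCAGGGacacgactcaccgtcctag
The stretch is found on the sense strand of 11 of the 14 annotated beta joining segments, which are 46 to 53 bases long, and of 59 of all 80 annotated mouse joining segments (73.8%), and on the other strand of none of the 80. No run of 31 bases is shared by any pair of beta joining segments.

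The constant segments are far more alike, and this bears on every value below. Their first exons, 375 bases each, differ at 1 base (99.7% identity). The other coding bases, from base 376 to base 518, differ at 22 (84.6% identity), and are printed with the differing bases in capitals because they are where coding reads can be assigned to 1 segment or the other.
Trbc1: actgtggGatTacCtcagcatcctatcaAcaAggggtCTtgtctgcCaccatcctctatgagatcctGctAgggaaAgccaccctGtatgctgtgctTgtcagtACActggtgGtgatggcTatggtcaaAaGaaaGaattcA
Trbc2: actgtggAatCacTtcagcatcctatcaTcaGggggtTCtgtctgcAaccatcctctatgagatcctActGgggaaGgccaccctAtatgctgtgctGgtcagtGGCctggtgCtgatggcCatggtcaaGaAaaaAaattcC
Of the 31-base words of the annotated Trbc1 transcript, 45.4% also occur in Trbc2, all of them in the coding part, and the bases after the coding part share none. How reads from the shared stretch were divided between the segments was done by the quantification tool and cannot be checked from the values, so the split between Trbc1 and Trbc2 is less certain than their presence.

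Constant-segment transcripts were found in nearly every cell and Trbj1-3 in 67.1% of cells on average. Many cells share exactly the same lowest value of a gene, which stands for no reads, and a transcript counts as detected where its value differs from that one. Trbc1 was detected in 95.5% of cells in mouse 1A, in 95.7% in 1B, in 96.9% in 2A and in 95.1% in 2B (95.8 ± 0.768%, mean ± SD of 4 mice). Trbc2 was detected in 97.01, 100, 100 and 96.7% of cells of the same mice (98.4 ± 1.81%), and Trbj1-3 in 68.7, 63.8, 67.2 and 68.9% (67.1 ± 2.35%). The 4 mice lay close together for each member, and the exact 95% Clopper-Pearson intervals of the Trbj1-3 shares, which cover counting error only, ran from 51.3% at the lowest to 80.1% at the highest and overlapped for all 4. In the deposited log2 values the median of all cells was 9.32, 9.17, 9.27 and 9.5 for Trbc1 (mouse 1A, then 1B, 2A and 2B), 9.997, 10.28, 10.16 and 10.22 for Trbc2, and 2.21, 2.06, 2.47 and 2.14 for Trbj1-3. Values of single cells ranged from -2.50 to 11.6 for Trbc1, from -4.13 to 13.29 for Trbc2 and from -0.54 to 5.69 for Trbj1-3. Under a stricter rule, which asks for a linear value exceeding that of no reads by 10 or more, the shares were 80.8 ± 1.04% for Trbc1, 87.4 ± 4.88% for Trbc2 and 33.1 ± 4.31% for Trbj1-3. It is not stated whether the deposited values are scaled by transcript length, so levels of a joining and a constant segment are not compared.

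**Figure D1:**
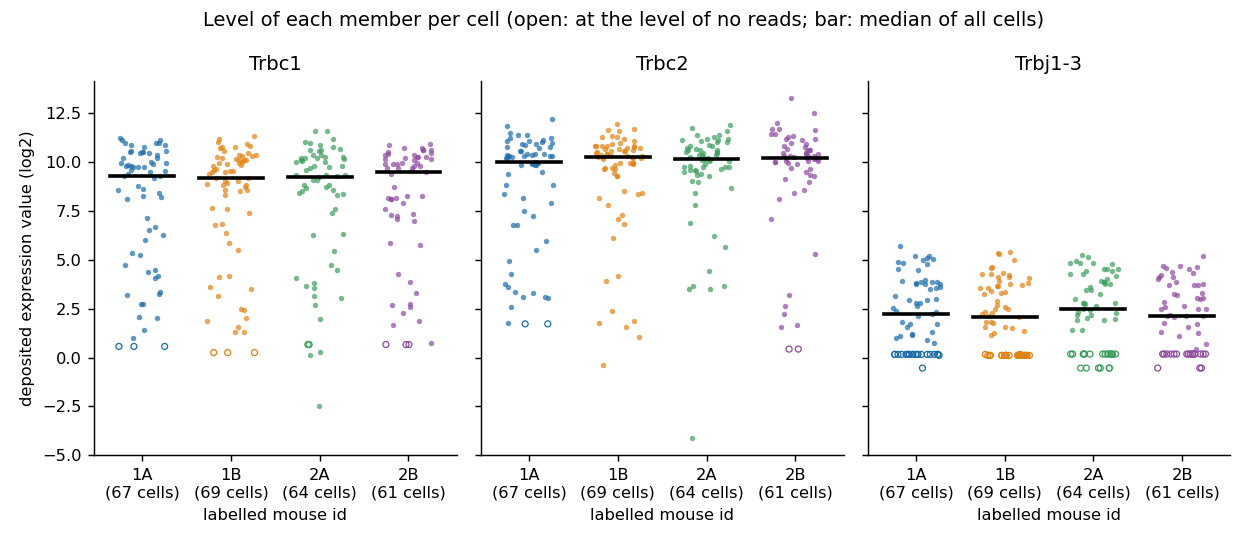
Deposited expression value (log2, vertical axis) of Trbc1, Trbc2 and Trbj1-3 in each cell (point) of mice 1A, 1B, 2A and 2B (horizontal axis), with open points at the level of no reads and a bar at the median of all cells. Most Trbc1 and Trbc2 values lie in a dense band near their medians of 9.17 to 9.5 and 9.997 to 10.28 with a tail of low cells in each mouse, and Trbj1-3 falls into cells at the level of no reads and cells spread up to 5.69.

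The cells lacking a constant segment were few, and every cell with Trbj1-3 counted as having both constant segments as well. Trbc1 was not detected in 11 cells and Trbc2 in 4, and 2 cells had none of the 3 members. All 3 were found together in 67.05% of cells. The level at no reads could not be recognised for Trbc1 in 1 of the 4 sets of cells that share a batch correction, nor for Trbc2 in 2 of them, so the single lowest cell of each such set counted as detected and the counts of undetected cells may be too low by 1 for Trbc1 and by 2 for Trbc2. The lowest Trbc1 cell so counted, at a log2 value of -2.50, had Trbj1-3 detected, so it may hold Trbj1-3 without Trbc1. By set, Trbj1-3 was detected in 58.9, 63.1, 67.2 and 82.1% of cells, and mouse 2A, with cells in both sequencing pools, had it in 22 of 29 cells (75.9%) from the first and 21 of 35 from the second. Trbc1 was detected in 100% and 94.3% of these same cells. Read depth per cell is not in the matrix. How many genes were detected in a cell stands in for it (median 7782, range 5073 to 10337, mouse medians 7518 to 8243).

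Along the locus the joining segments nearest to the start of each cluster were detected most often, and those of the first cluster more evenly than those of the second. Trbj1-1 was detected in 82.2 ± 6.02% of cells and Trbj1-2 in 77.9 ± 4.46%, followed by Trbj1-5 (72.4 ± 3.14%), Trbj1-6 (68.2 ± 2.68%), Trbj1-4 (67.8 ± 2.10%), Trbj1-3 (67.1 ± 2.35%) and Trbj1-7 (65.97 ± 3.29%). In the second cluster Trbj2-1 was detected in 88.6 ± 6.34% and Trbj2-2 in 64.5 ± 5.39%, and the rest ranged from 29.3 ± 9.15% (Trbj2-5) to 59.1 ± 2.06% (Trbj2-7). These segments differ in length by 7 bases at most. How length enters the values is not stated, so the order given here is one of deposited values. The median log2 value was 5.62 ± 0.07 for Trbj1-1 and 5.6 ± 0.17 for Trbj2-1, which did not differ beyond their spread over mice. Trbj1-2 followed with 4.13 ± 0.11 and Trbj1-5 with 3.24 ± 0.24. Trbj1-7, Trbj1-4, Trbj1-6, Trbj2-2 and Trbj1-3 then lay between 2.51 ± 0.44 and 2.22 ± 0.18 and did not differ from their neighbours beyond the spread. Trbj1-3 is thus a mid-level joining segment by value, and the Trbj2-3 to Trbj2-6 segments, at medians of 0.53 or lower, are the lowest. A median of 10 of the 14 joining rows was found per cell, 13 cells had none, and at least 1 of the 4 Trbv rows of the matrix (Trbv12-2, Trbv13-2, Trbv15 and Trbv24) was found in 55.9% of cells.

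**Figure D2:**
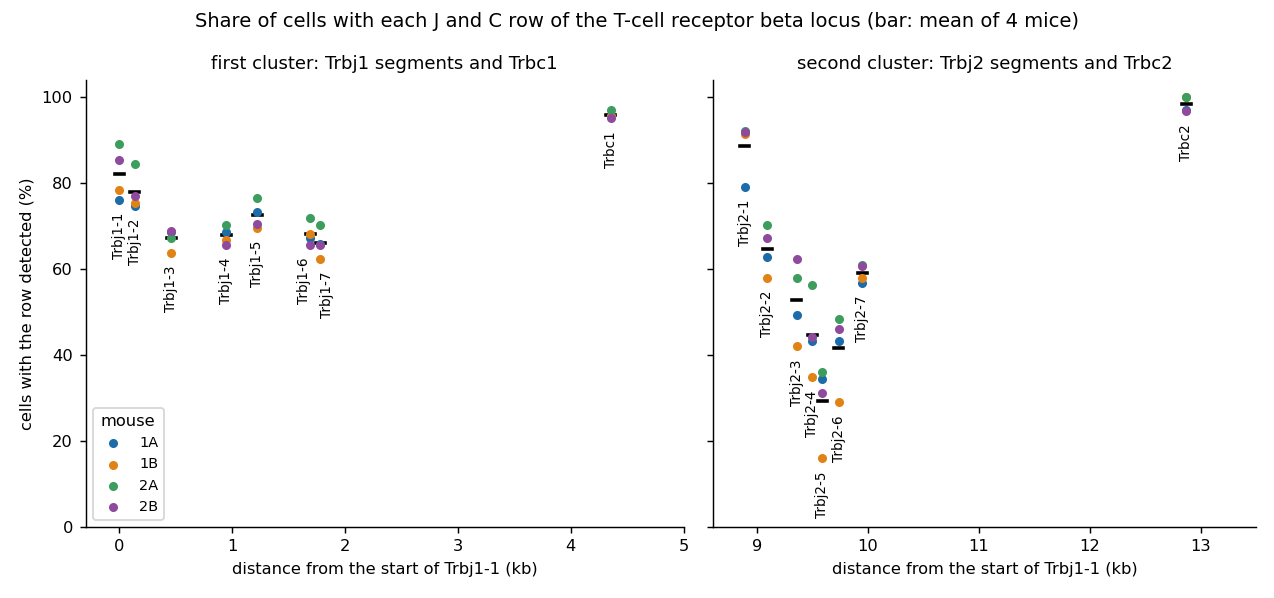
Share of cells (%, vertical axis) in which each joining and constant row of the beta locus was detected, against its distance from the start of Trbj1-1 (kb, horizontal axis), with a point per mouse and a bar at the mean of 4 mice. In the first cluster, shares fall from Trbj1-1 (82.2%) to between 65.97 and 72.4% for Trbj1-3 to Trbj1-7, with Trbj1-5 the highest of these. In the second they fall from Trbj2-1 (88.6%) to 29.3% at Trbj2-5 and rise to 59.1% at Trbj2-7. Trbc1 and Trbc2 lie above all joining segments at 95.8% and 98.4%.

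Within the locus, Trbc1 went with all joining segments of its own cluster and Trbc2 mainly with the leading ones of its own. The measure is the partial Spearman rho between rows across the cells of 1 mouse, held for how many genes each cell had detected (as a rank) and for its correction set, then averaged over the 4 mice. The cells of a mouse share plates and corrections, and reads of 1 spliced transcript can fall on both a joining and a constant row, so these values are a description without a test. Trbc1 had a rho of 0.953 ± 0.016 with Trbj1-1, 0.888 ± 0.0204 with Trbj1-2 and 0.719 ± 0.0813 with Trbj1-3, and its rho with all 7 Trbj1 rows lay between 0.716 and 0.953. With the 7 Trbj2 rows its rho lay between 0.130 and 0.465. Trbc2 had its highest rho with Trbj2-1 (0.884 ± 0.0325) and Trbj2-2 (0.546 ± 0.0707), and with the Trbj1 rows it lay between 0.286 and 0.393. Its rho with Trbj2-5 (0.294), Trbj2-7 (0.337) and Trbj2-6 (0.343) lay inside that range. For Trbj1-3 the rho with Trbc1 was 0.640 in mouse 1A, 0.805 in 1B, 0.754 in 2A and 0.648 in 2B, and with Trbc2 it was 0.299, 0.378, 0.351 and 0.101. In each of the 4 mice Trbj1-3 thus followed Trbc1 more closely than Trbc2. Its closest rows were Trbj1-7 (0.896 ± 0.0667) and Trbj1-5 (0.879 ± 0.0663), both further along the same cluster.

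**Figure D3:**
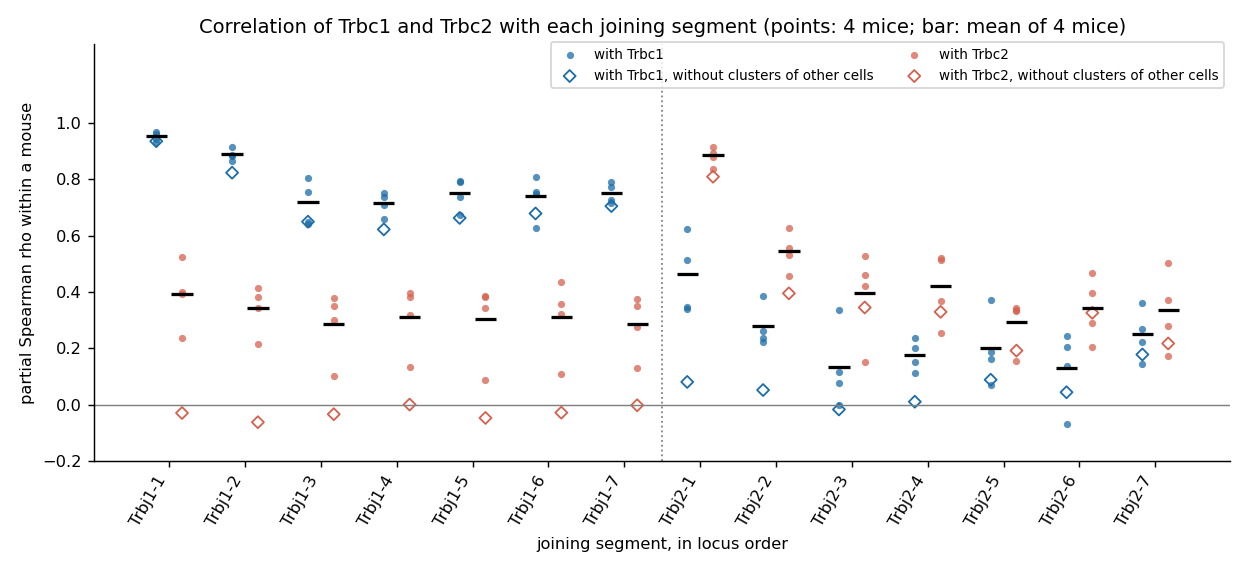
Partial Spearman rho within a mouse (vertical axis) of Trbc1 (blue) and Trbc2 (red) with each joining segment in locus order (horizontal axis), with a point per mouse, a bar at the mean of 4 mice, and an open diamond at the mean of 4 mice without the clusters led by dendritic, mast, macrophage or NK/ILC genes. Left of the dotted line Trbc1 lies at 0.716 to 0.953 and Trbc2 at 0.286 to 0.393, and right of it Trbc2 lies above Trbc1 for all 7 Trbj2 rows.

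The test of the difference between the constant segments named almost only joining segments. For each gene the Fisher z of its correlation with Trbc1 minus that with Trbc2 was tested over the 4 mice with limma, and 12 of 12430 genes (0.0965%) passed an adjusted p under 0.05, with 822 at an unadjusted p under 0.05. Of these, 8 (0.0644%) went more closely with Trbc1: the 7 Trbj1 rows and Gpr37, an orphan G protein-coupled receptor gene. The other 4 (0.0322%) went more closely with Trbc2: Trbj2-1, Trbj2-2, Trbj2-3 and Npm1, which encodes the nucleolar protein nucleophosmin. The largest mean difference in z was 1.44 ± 0.0863 for Trbj1-1 and, in the other direction, -0.892 ± 0.19 for Trbj2-1 (adjusted p = 2.83e-33 by limma). Npm1 had a rho of 0.164 with Trbc1 and 0.430 with Trbc2 (adjusted p = 0.0265). All 12 differences had the same sign in 4 of 4 mice. The joining rows were the same ones the description above shows, so the test adds the size of the difference and how few other genes passed.

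The cells were grouped by Ward clustering into 8 clusters after all T-cell receptor rows had been taken out, so the members did not shape the clusters. Siglech, Pld4 and Irf8 led a dendritic-like cluster of 19 cells, Hdc, Mcpt8 and Prss34 a basophil/mast-like cluster of 9, Il2rb, Klrk1 and Klrd1 an NK/ILC-like cluster of 22 (natural killer and innate lymphoid cells), and Mpo, Pdgfrb and Adgrg1 a progenitor-like cluster of 68. A cluster of 40 cells was led by G2M genes such as Plk1 and Ccnb1 and one of 66 cells by Mybl2, Rrm2 and Cdc6. The remaining clusters were left unnamed: 23 cells led by Cd74, Csf1r and Pld4, with markers of both dendritic cells and macrophages, and 14 cells led by Gm9892. The ETP label thus covers 73 cells whose leading genes belong to other cell types or to a mix of them. The sources used here do not state the sort gate.

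Trbc1 and Trbc2 were high in the progenitor-like, cycling and Gm9892-led cells and low on average in the dendritic-like, basophil/mast-like and Cd74-led cells. Trbj1-3 had its highest median in the progenitor-like cluster. In the progenitor-like cluster Trbc1 was detected in 68 of 68 cells at a median log2 value of 10.29, Trbc2 in 68 at 10.4, and Trbj1-3 in 63 (92.6%) at 3.72. In the dendritic-like cluster Trbc1 was still detected in 15 of 19 cells (78.9%, exact 95% interval 54.4 to 93.9%) but at a median of 3.20, Trbc2 in 17 at 4.42, and Trbj1-3 in 1 (5.26%). In the basophil/mast-like cluster Trbc1 was detected in 3 of 9 cells, Trbc2 in 8, and Trbj1-3 in 0, for which the exact interval reaches 33.6%. In the Gm9892-led cluster, which had no cell of mouse 1B, Trbc1 had a median of 10.04, Trbc2 of 11.24, the highest of the 8 clusters, and Trbj1-3 was detected in 7 of 14 cells. The Cd74-led cluster had Trbc1 in 23 of 23 cells at a median of 2.47 and Trbj1-3 in 6 (26.1%). Of these 23, 1 cell counted as having Trbc1 only because its correction set had no recognised level at no reads. Trbc2 was mixed in this cluster: mouse means were 3.66 to 6.08 in the 3 mice with 3 or more such cells, and single cells ranged from -4.13 to 10.31. Averaged per mouse first, Trbc1 was 9.84 ± 0.34 in the progenitor-like cluster, with mouse means from 9.51 to 10.28, and 2.67 ± 1.12 in the dendritic-like cluster, with mouse means from 1.07 to 3.68, so the mouse means of these clusters did not overlap. These values are given as a description, with no test. The dendritic-like cells had a median of 6112 detected genes and the progenitor-like cells 7705.5, and the part of this difference in the levels was not tested.

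In the NK/ILC-like cells constant segments were frequent and the 4 Trbv rows of the matrix were rarely found. All 22 of these cells had another NK/ILC-like cell in a neighbouring well of the plate, against 37 of 68 progenitor-like and 2 of 19 dendritic-like cells, so this cluster and position on the plate cannot be told apart. Trbc1 was detected in 21 of 22 of them at a median log2 value of 9.0, Trbc2 in 22 at 8.64 and Trbj1-3 in 13 (59.1%), but any Trbv row in 1 (4.55%). In the progenitor-like cluster a Trbv row was found in 56 of 68 cells (82.4%). Trbj1-3 was found in 4 of 5, 3 of 8 and 6 of 9 NK/ILC-like cells of mice 1A, 1B and 2A, and mouse 2B had no such cell. These cells had a median of 6689 detected genes, fewer than the progenitor-like cells, and the part of depth in the Trbv difference was not tested. The dendritic-like cluster, with a lower median of 6112 detected genes, had a Trbv row in 5 of 19 cells (26.3%), the Cd74-led cluster in 3 of 23 (13.04%) and the basophil/mast-like cluster in 0 of 9. A low Trbv share is thus found in each of the 4 clusters of other cells.

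**Figure D4:**
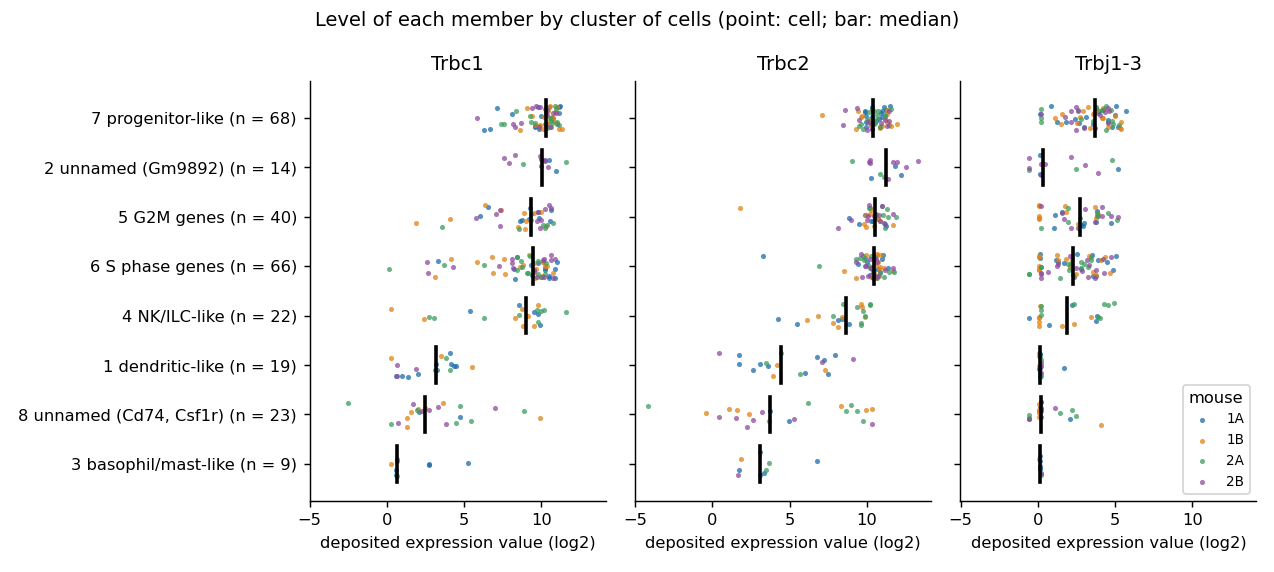
Deposited expression value (log2, horizontal axis) of Trbc1, Trbc2 and Trbj1-3 in single cells (points, coloured by mouse) of the 8 clusters (vertical axis), with a bar at the median of each cluster. Trbc1 medians are 10.29 in the progenitor-like and 9.0 in the NK/ILC-like cluster, against 3.20 in the dendritic-like and 2.47 in the Cd74-led cluster, and Trbj1-3 has its highest median, 3.72, in the progenitor-like cluster.

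Across all cells, Trbc1 went with 768 of 12431 tested genes (6.18%; 4.59% positively and 1.59% negatively), Trbc2 with 1110 (8.93%; 6.93% and 2%) and Trbj1-3 with 1.43% of them (1.3% and 0.129%), at an adjusted p under 0.05 by limma over the 4 mice. Of those called, 701 for Trbc1 and 1005 for Trbc2 had the same sign in 4 of 4 mice. These counts were lower without the clusters of other cell types. The cells outside the dendritic-like, basophil/mast-like, NK/ILC-like and Cd74-led clusters are called the remaining cells below. In them, 46 of 12390 tested genes passed for Trbc1 (0.371%), 12 for Trbc2 (0.0969%) and 63 for Trbj1-3 (0.508%). The part of the smaller number of cells in these counts was not tested. The correlations were smaller there too. For genes that had passed in all cells, the median size of rho was 0.244 for Trbc1, 0.247 for Trbc2 and 0.270 for Trbj1-3. In the remaining cells it was 0.105, 0.108 and 0.188 for those still tested. Leaving out 1 mouse also lowered most counts, but this median then lay at 0.241 to 0.263, 0.232 to 0.275 and 0.255 to 0.309. The count for Trbc1 was 306 without mouse 2B and 422 without 1A, that for Trbc2 was 663 to 681 without 1A, 2A or 2B, and that for Trbj1-3 was 46 without 1B, 66 without 2B and 80 without 1A. For Trbc1 and Trbj1-3 limma judged the 4 correlations of a gene against a spread common to all genes, so an adjusted p reflects the size of the mean rho more than that gene's own spread, which is given as the SD.

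Outside the receptor loci the genes most like Trbc1 were Angpt1 (mean rho 0.549 ± 0.105), which encodes angiopoietin 1, the T-cell factor gene Tcf7 (0.505 ± 0.0563), Deptor (0.483 ± 0.0529), an inhibitor of mTOR, Skp1a (0.477 ± 0.0606), a ubiquitin ligase subunit, and Scin (0.476 ± 0.0363), an actin-severing protein. All 5 were positive in 4 of 4 mice and passed the test. Those most like Trbj1-3 were Gpr37 (0.491 ± 0.0732), Scin (0.439 ± 0.0935), the myeloperoxidase gene Mpo (0.431 ± 0.177), Angpt1 (0.431 ± 0.113) and the adhesion receptor gene Adgrg1 (0.431 ± 0.195). Those most like Trbc2 included the ribosomal protein genes Rps20 (0.520 ± 0.0577) and Rps3a1 (0.515 ± 0.0762), Atpif1 (0.506 ± 0.0782), an inhibitor of the mitochondrial ATP synthase, the ribosomal Rps18 (0.497 ± 0.0627) and the predicted gene Gm4332 (0.495 ± 0.0953), with Crip1 (0.492) and Rps12l1 (0.483) also among the highest. Ribosomal protein genes, a group taken up after its values were seen, went positively with Trbc2 in 79 of 85 and with Trbc1 in 73 of 85, against 6.93% and 4.59% of all genes. With Trbj1-3 7 of 85 did so, fewer than with the constant segments but also above the 1.3% of all genes. In the remaining cells these counts were 2, 0 and 0.

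Among the lowest correlations was that of Cd74. This gene, which encodes the invariant chain of class II antigen presentation, had a mean rho of -0.423 ± 0.0981 with Trbc1, -0.407 ± 0.145 with Trbc2 and -0.286 ± 0.0531 with Trbj1-3. With Trbc1 it was followed by the lysosomal protease gene Ctss (-0.389), the actin-binding Gsn (-0.383), the immunoglobulin mu chain gene Ighm (-0.383) and the cytokine receptor gene Flt3 (-0.382). With Trbc2 the lowest also included Atp1b1 (-0.414), Gsn (-0.403), the E-cadherin gene Cdh1 (-0.397) and Csf2rb2 (-0.393), and with Trbj1-3 Ighm (-0.338), Flt3 (-0.289), Myadm (-0.262) and Fyb (-0.256). Among the 14 tested dendritic genes, 7 went negatively with Trbc1 (Irf8, Pld4, Mpeg1, Ly86, Ctsh, Flt3 and Cd74), 8 with Trbc2 (Irf8, Pld4, Spib, Mpeg1, Ly86, Ctsh, Cd74 and H2-Aa) and 2 with Trbj1-3 (Flt3 and Cd74), and 0 positively. Their median rho was -0.191, -0.213 and -0.122, against 0.0199, 0.0212 and 0.0217 over all genes, of which 1.59, 2 and 0.129% passed negatively. Among 10 macrophage genes Adgre1, C1qa and Cd68 went negatively with Trbc1 and Adgre1 and Cd68 with Trbc2, and none passed for Trbj1-3. Without the 4 clusters of other cells, Flt3 was the only dendritic gene that passed for any member.

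A few early regulators of T-cell specification went with the members across all cells. Of 19 tested T specification genes, 4 went positively with Trbc1 (Tcf7, Gata3, Il2ra and Tox), 5 with Trbc2 (Tcf7, Gata3, Tox, Cd27 and Gfi1) and 4 with Trbj1-3 (Tcf7, Gata3, Il2ra and Tox), and the transcription factor gene Ets1 went negatively with Trbc1 (-0.245) and Trbc2 (-0.325). Tcf7 had a mean rho of 0.505, 0.444 and 0.348 with Trbc1, Trbc2 and Trbj1-3, and Gata3, a zinc-finger factor needed at the start of the T lineage, 0.328, 0.286 and 0.368. Gata3 was detected in 91.99 ± 4.37% of cells with Trbj1-3 and in 63.99 ± 21.1% of cells without it, and it was more frequent with Trbj1-3 in 4 of 4 mice. The number of detected genes is not held in this comparison, and the same held in 4 of 4 mice for genes whose rho with Trbj1-3 did not pass, such as Cd34 (98.3 against 86.8%), Lat (93.2 against 77.2%) and Trdc (54.4 against 38.3%). Il2ra, the interleukin 2 receptor alpha chain of later progenitors, had a rho of 0.247, 0.184 and 0.240, of which that with Trbc2 did not pass. Bcl11b, the commitment factor, was detected in 13.8% of cells and had a rho of 0.152, 0.0576 and 0.0431, none past the test. The median over the list was 0.121, 0.0576 and 0.137. Over all genes 4.59, 6.93 and 1.3% passed positively. In the remaining cells 1 of the 19 passed with Trbc1 (Tcf7) and 0 with Trbc2 or Trbj1-3, and Gata3 had 0.186, 0.0730 and 0.231 (adjusted p = 0.361, 0.933 and 0.205 by limma). Of 9 tested Notch targets, which include Il2ra, 3 passed for Trbc1 (Hes1, Nrarp and Il2ra), 3 for Trbc2 (Hes1, Nrarp and Dtx1) and 2 for Trbj1-3 (Hes1 and Il2ra). Hes1, a transcriptional repressor gene, had 0.292, 0.250 and 0.290, while the receptor gene Notch1, detected in every cell, had 0.158, 0.156 and 0.189 and did not pass. Of 8 Notch targets tested in the remaining cells 0 passed for any member, with Hes1 at 0.104, 0.0260 and 0.193.

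Of the receptor's own signalling machinery the kinase gene Lck and the adaptor genes Lat and Lcp2 passed for some or all members, and the tested CD3 chains did not pass. Lck, the kinase that acts first downstream of the receptor, had a mean rho of 0.441 ± 0.103 with Trbc1, 0.424 ± 0.029 with Trbc2 and 0.345 ± 0.14 with Trbj1-3. The adaptor gene Lat passed for Trbc1 (0.268) and Trbc2 (0.231) but not for Trbj1-3 (0.160, adjusted p = 0.292 by limma), and Lcp2 passed for Trbc1 (0.214) and Trbj1-3 (0.237). Cd3d, detected in 59.4% of cells, had a rho of -0.119, -0.101 and -0.0870, and Cd3g, detected in 34.5%, 0.0725, 0.0561 and -0.00585. Cd3e was detected in 6.51% of cells, under the minimum of 10% for testing, and Cd247, Zap70 and Ptcra, the surrogate alpha chain that pairs with the beta chain, lay between -0.0366 and 0.0924 for every member. Of 18 tested genes of this list 3 passed for Trbc1, 2 for Trbc2 and 2 for Trbj1-3, all positively. Over all genes 4.59, 6.93 and 1.3% passed positively, so the count for Trbc2 lay near the share of all genes. Of the 17 tested in the remaining cells 0 passed for any member, and Lck had 0.202, 0.158 and 0.221 (adjusted p = 0.315, 0.701 and 0.254 by limma). The recombinase genes did not track the members: Rag1, detected in 13.4% of cells, had a rho of -0.0881, 0.0529 and -0.152, and Rag2, detected in 45.6%, 0.0847, 0.1249 and 0.0652. Of 11 tested recombination genes only Hmgb1 passed, with Trbc2 (0.256). Dntt and Trac were not analysed here.

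Transcripts of the gamma and delta receptor chains ran only partly alongside. Trdc, the constant segment of the delta chain, went positively with Trbc1 (0.256 ± 0.0704) and Trbc2 (0.250 ± 0.0975), and its rho of 0.0908 ± 0.163 with Trbj1-3 did not pass. Tcrg-C1, a gamma constant segment, had 0.127, 0.172 and 0.0609, none past the test, and Sox13 passed for Trbc2 (0.205). Of 10 tested gamma-delta T genes 1 passed for Trbc1, 2 for Trbc2 and 0 for Trbj1-3, all positively. Over all genes 4.59, 6.93 and 1.3% passed positively. In the remaining cells 0 of the 10 passed for any member. Trdc had 0.200, 0.177 and 0.0227 there (adjusted p = 0.295, 0.625 and 0.960 by limma).

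Progenitor genes split. Of 25, 9 went positively with Trbc1 (Kit, Lyl1, Erg, Myb, Adgrg1, Nfe2, Mpo, Pdgfrb and Dnmt3b) and 2 negatively (Flt3 and Cebpa). With Trbc2 9 were positive (Kit, Mycn, Erg, Myb, Adgrg1, Nfe2, Mpo, Pdgfrb and Dnmt3b) and 2 negative (Cd44 and Cebpa), and with Trbj1-3 6 were positive (Kit, Myb, Adgrg1, Nfe2, Mpo and Pdgfrb) and Flt3 negative. Over all genes 4.59, 6.93 and 1.3% passed positively with Trbc1, Trbc2 and Trbj1-3, and 1.59, 2 and 0.129% negatively. The stem cell factor receptor gene Kit had a mean rho of 0.407 ± 0.126, 0.310 ± 0.0577 and 0.350 ± 0.08 with Trbc1, Trbc2 and Trbj1-3. Flt3 had -0.382 ± 0.0294, -0.191 ± 0.165 and -0.289 ± 0.0855, of which that with Trbc2 did not pass (adjusted p = 0.0606 by limma). Cd34 (0.0551, 0.197 and 0.0745) and Spi1, which encodes PU.1 (-0.0660, -0.0472 and -0.0215), did not pass for any member. Positive calls in the remaining cells numbered 0 of 24 for Trbc1, 0 for Trbc2 and 1 for Trbj1-3 (Mpo), and Kit had 0.213, -0.0115 and 0.224, none past the test. The list's median of 0.0445, 0.0765 and 0.0224 lay near that of all genes for Trbj1-3.

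**Figure D5:**
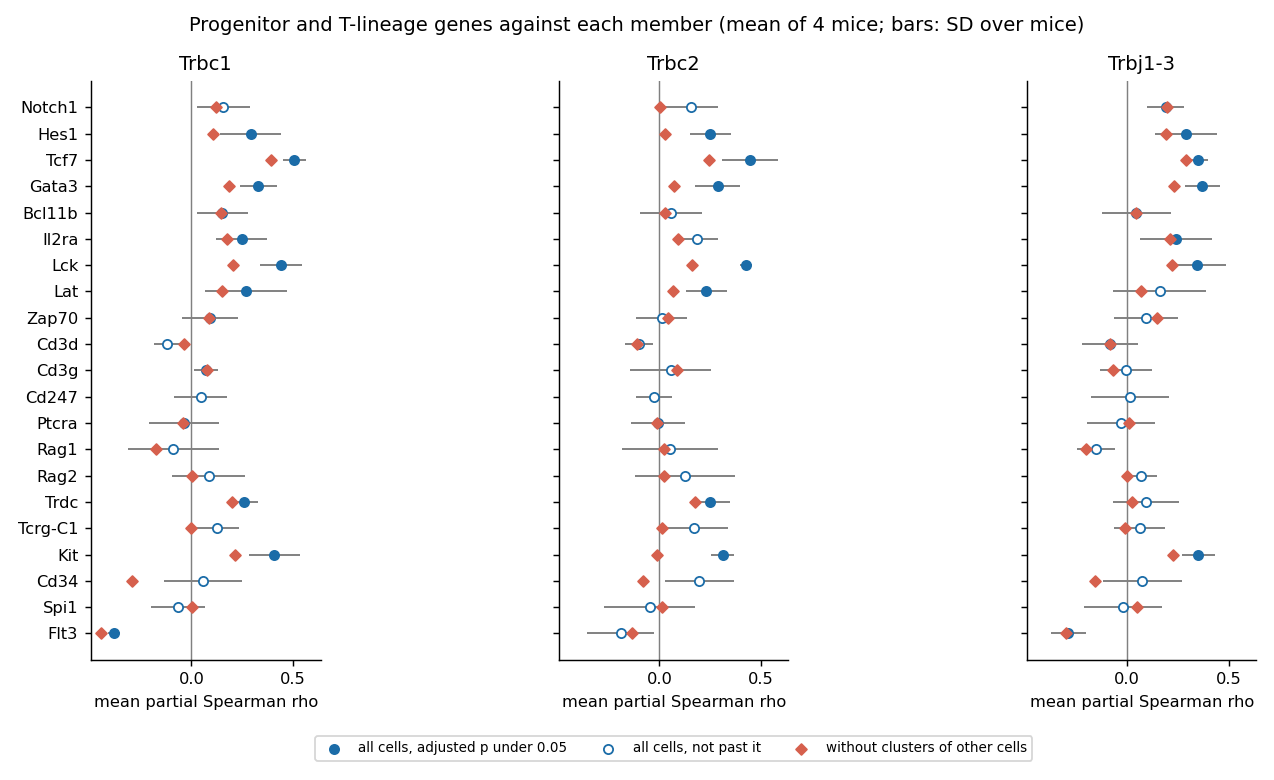
Mean partial Spearman rho over 4 mice (horizontal axis) of 21 progenitor and T-lineage genes (vertical axis) with Trbc1, Trbc2 and Trbj1-3 in all cells (circles, filled where the adjusted p is under 0.05, bars for the SD over mice) and without the clusters of other cell types (diamonds). Tcf7 keeps 0.392 and Flt3 -0.442 with Trbc1 in the remaining cells, and Kit falls from 0.310 to -0.0115 with Trbc2.

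Genes of other lineages and of the cell cycle gave further calls, most of them few. Over all genes the shares that passed were 4.59% positively and 1.59% negatively for Trbc1, 6.93 and 2% for Trbc2, and 1.3 and 0.129% for Trbj1-3. Of 22 NK and ILC genes Gzmb and Nkg7 went positively with Trbc1 and Trbj1-3 and Nkg7 with Trbc2, and Il7r went negatively with Trbc1 (-0.264). The mast-cell protease gene Cpa3 went positively with all 3 members (0.400, 0.294 and 0.316), whereas Prss34 (-0.209 with Trbc1) and Ms4a2 (-0.200 with Trbc2) went negatively. Of 6 myeloid genes, which include Mpo and Cebpa of the progenitor list, Prtn3 passed for Trbc1 (0.316) and Trbc2 (0.308) and Ly6c2 for Trbc1 (-0.252). Itga2b (0.205 with Trbc1) and Hbb-bs (0.212 with Trbc2) passed among 5 erythroid and megakaryocyte genes, Ighm alone among 6 B-cell genes, and 0 of 4 thymic stroma genes. Of 18 S phase genes Mcm4, Mcm5, Mcm6 and Ung went positively with Trbc1 and Mcm3 and Gins2 with Trbc2, and of 16 G2M genes Nusap1 went negatively with Trbc1 (-0.240). The S phase count for Trbc1 lay above the share of all genes and that for Trbc2 near it.

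In the remaining cells, those outside the clusters of other cell types, the correlations within each cluster of the locus stayed high for its leading segments, and those between the constant segments, and between Trbc2 and the Trbj1 rows, lay near 0. Other pairs across the clusters did not all do so: Trbj1-3 had 0.260 with Trbj2-7 and Trbc1 had 0.178 with Trbj2-7, near the 0.192 of Trbc2 with Trbj2-5. Trbc1 kept a mean rho of 0.935 with Trbj1-1 and 0.649 with Trbj1-3, and Trbc2 kept 0.809 with Trbj2-1. Between Trbc1 and Trbc2 the mean rho was 0.445 ± 0.103 in all cells and 0.0401 ± 0.198 in the remaining cells, and between Trbc2 and Trbj1-3 it was 0.286 in all cells and -0.0340 in the remaining ones. The difference test then passed for 8 genes, the 7 Trbj1 rows and Trbj2-1. Trbj1-3 was detected in 82.5 ± 4.44% of these cells and Trbc1 in all of them.

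The genes that passed in these remaining cells were few and partly other ones: 11 of 12 for Trbc2 and 21 of 63 for Trbj1-3 had also passed in all cells. For Trbc1, 46 passed, among them the 7 Trbj1 rows, and 27 of the 46 had also passed in all cells. Positive ones included Tmsb4x (0.483), which encodes thymosin beta 4, Gpr37 (0.419), Tcf7 (0.392), Trf (0.389), which encodes transferrin, Scin (0.385) and Angpt1 (0.323), and the most negative was Flt3 (-0.442, adjusted p = 1.08e-05 by limma, negative in 4 of 4 mice). Of 16 G2M genes, 4 went negatively with Trbc1 in these cells (Ccnb2, Mki67, Cdc20 and Nusap1), against 18 of all 12390 genes tested. In all cells Ccnb2 (0.0371), Mki67 (-0.141) and Cdc20 (-0.0708) did not pass. For Trbc2 the 12 were Trbj2-1, Trbj2-2, Trbj2-3, Trbj2-4, Trbj2-6, Atpif1, Rps15a, Rps3a1, Myl6, Crip1, Gm4332 and Zfp36l2, all positive. For Trbj1-3 the positive ones included Gpr37 (0.462), Scin (0.399) and Mpo (0.313), and the negative ones Npm1 (-0.406), the chaperone gene Hsp90aa1 (-0.332), nucleolin (Ncl, -0.329) and Flt3 (-0.303). Genes in this paragraph outside the lists were chosen after their values were seen.

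Trbj1-3 and Trbc1 differed in what else they went with. The difference of their correlations passed for 1.67% of 12430 genes, 0.282% with a higher correlation with Trbj1-3 and 1.38% with a higher one with Trbc1, and for 13 genes in the remaining cells. It passed for 12 without mouse 1A, 49 without 2B and 71 without 2A. The genes closer to Trbc1 were led by Trbj1-1 (rho of 0.787 with Trbj1-3 and 0.953 with Trbc1), Hsp90aa1 (0.0387 and 0.304) and the ribosomal genes Rpl23 (0.102 and 0.354), Rps12l1 (0.169 and 0.411) and Rpl24 (0.0828 and 0.334). Those closer to Trbj1-3 were led by Trbj1-7, Trbj1-5, Trbj1-4 and Trbj1-6, followed by Ctsc, a lysosomal protease gene (-0.00547 with Trbj1-3 and -0.231 with Trbc1). Trbj1-3 has the fewer detected cells, and the part of its lower level in this difference was not tested.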

How the data were processed

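The deposited values were log2 normalized, batch-corrected expression per gene and cell, and per the submitters' processing notes the authors used Salmon and GRCm38. How values were scaled for depth and length, which correction tool ran and how cells were filtered is not given in the sources. Values repeated exactly within sets of cells showed 4 correction sets (73, 65, 67 and 56 cells). The repeated lowest value of a gene in a set stood for no reads, and values differing from it by more than 1e-06 counted as detected. Cells are not replicates. Within each mouse, partial Spearman correlations were computed given the rank of detected genes and the correction set, and the Fisher z values of the 4 mice were tested two-sided with limma 3.58.1 in R 4.3.3, with Benjamini-Hochberg adjustment at 0.05 over genes detected in at least 10% of cells. The prior degrees of freedom were infinite for Trbc1 and Trbj1-3 and 157 for Trbc2, against 3 residual ones. Spread between mouse ids may be technical. Clusters were built without T-cell receptor rows, and doublets were not called. The genes named are the most and least correlated, those with the largest differences, and every list gene past the threshold. The members and gene lists were chosen with earlier results of these data known. The procedure was tested on simulated data. Of the 300 labelled cells, 39 were not analysed here.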

Additional observations from a re-analysis of the deposited data

Results flagged for a closer look

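Over the 4 mice, 5 values had 1 mouse far from the other 3 by Dixon's 95% criterion, which is 4.31% of the values looked at. Chance marks about 1 in 20, so this is no more than chance gives. The correlation of Rps20 with Trbc2 was 0.604 in 1 mouse and 0.491 to 0.495 in the others. That of Cd247 with Trbc2 was 0.105 in 1 mouse and -0.0634 to -0.0616 in the others. With Trbj1-3, the lowest mouse had -0.290 for Cd3d (others -0.0335 to 0.0036), 0.240 for Gata3 (others 0.398 to 0.420) and 0.159 for Mpo (others 0.480 to 0.544).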

How the results depend on the processing

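The shares of tested genes that passed moved most. Leaving out the rank of detected genes gave 11.5% for Trbc1, 24.2% for Trbc2, 7.92% for Trbj1-3, 0.306% for the Trbc1 and Trbc2 difference and 0.949% for the Trbj1-3 and Trbc1 difference. In the remaining cells, outside the 4 clusters of other cell types, they were 0.371, 0.0969, 0.508, 0.0646 and 0.105%. With the NK/ILC-like cells kept, an alternative chosen after seeing the data, they were 0.338, 0.354 and 0.395% for the members and 0.121% for the second difference. Pearson correlation gave 9.34% for Trbc1 and 3.27% for the second difference, which was 0.459% with correction sets as units. With levels under 10 set to no reads, Trbj1-3 had 0.167% and the second difference 3.05%, and without the first 8 cells of each set Trbj1-3 had 2.17%. Leaving out 1 mouse gave 2.46 to 5.00% for Trbc1, 5.33 to 7.19% for Trbc2, 0.370 to 2.11% for Trbj1-3, 0.0644 to 0.105% for the first difference and 0.0965 to 1.44% for the second. The Trbc1 and Trbc2 rho was 0.646 by Pearson, 0.0401 in the remaining cells and 0.102 with NK/ILC-like cells kept. Trbc1 and Trbj1-3 had 0.608 with levels under 10 set to no reads. Trbc2 and Trbj1-3 changed sign to -0.0340 in the remaining cells and had 0.0153 with NK/ILC-like cells kept, and Kit with Trbc2 changed sign to -0.0115 in the remaining cells. At a level of at least 10, detection was 80.8, 87.4 and 33.1%, all 3 members were found in 32.7%, and the shares were 26.3, 52.6 and 0% in dendritic-like, 31.8% (Trbj1-3) in NK/ILC-like and 55.9% (Trbj1-3) in progenitor-like cells, the last 75.8% with 5 clusters. In the remaining cells Trbc1 was at 100%, and Trbj1-3 and all 3 members were at 82.5%. The cause was not tested. Of 1804 alternatives for single genes, 1601 kept direction and side of the threshold. No paired analysis was possible because there is 1 group. Read depth per cell is unknown.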
